A study of Mus musculus with 9 samples.

Results

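The interferon response and antigen presentation genes are a list of 36 genes, among the 55536 listed, that cells switch on when interferon reaches them or use to show peptides to T cells. They were chosen by name and fall into 3 roles: 20 interferon-induced genes, 9 genes of the class I pathway and 7 of the class II pathway. All 36 names were found in the annotation. They were read in dissected mouse ovaries by RNA-seq of polyadenylated RNA, in 9 libraries. The 3 granulosa cell tumours and the 3 hyperplastic ovaries came from mice heterozygous for the C134W change in the forkhead factor Foxl2 (FOXL2 WT/C134W), and the 3 wild-type ovaries carried 2 unchanged copies (FOXL2 WT/WT). Granulosa cells, which enclose and nourish the oocyte, need Foxl2 to keep their identity. Age, strain and treatment are not given in the sources used here, and no sorting of cells is mentioned. The labels do not say that the libraries came from separate animals, and the titles of hyperplasia library 3 and tumour library 3 share a stem, so a p-value here sets a difference against the spread of these libraries, which may be technical.

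Interferons bind receptors on the cell surface, and the Janus kinases beneath them activate Stat proteins. Type I interferon acts mainly at the interferon-stimulated response element (ISRE) through a complex that holds Stat2 and Irf9, while interferon gamma acts mainly at the gamma-activated site (GAS). Class I molecules, a heavy chain with beta-2 microglobulin, sit on nearly all cells and carry peptides cut by the proteasome and brought in by the Tap transporter. Class II molecules are made mostly by macrophages, dendritic cells and B cells, under the coactivator Ciita, and macrophages are the most abundant immune cells of the normal ovary.

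Promoter stretches of 5 of the genes show the letters of these elements. Each stretch below runs 5′ to 3′ from base −150 to base −5 before the RefSeq start site (GRCm38.p6), and is shown because its gene is described in full below, it holds a motif within these bases and it lies outside the gene's own annotated transcripts. Capitals mark an ISRE (GAAA, any 2 bases, GAAA), a GAS (TTC, any 3 bases, GAA) or a CCAAT box, the core of the Y box of class II promoters, on either strand, so that CCAAT on the other strand reads ATTGG.
Oas1a (chr5:120907530-120907675, minus strand): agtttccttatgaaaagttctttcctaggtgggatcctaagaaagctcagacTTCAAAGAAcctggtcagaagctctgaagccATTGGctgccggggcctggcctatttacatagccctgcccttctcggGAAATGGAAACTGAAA
Bst2 (chr8:71537477-71537622, minus strand): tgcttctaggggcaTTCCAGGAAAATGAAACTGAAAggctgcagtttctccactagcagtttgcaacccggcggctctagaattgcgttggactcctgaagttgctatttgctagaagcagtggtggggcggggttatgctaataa
Irf1 (chr11:53769864-53770009, plus strand): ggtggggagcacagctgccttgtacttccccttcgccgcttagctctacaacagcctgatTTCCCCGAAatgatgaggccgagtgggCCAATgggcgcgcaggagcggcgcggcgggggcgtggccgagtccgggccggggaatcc
B2m (chr2:122147537-122147682, plus strand): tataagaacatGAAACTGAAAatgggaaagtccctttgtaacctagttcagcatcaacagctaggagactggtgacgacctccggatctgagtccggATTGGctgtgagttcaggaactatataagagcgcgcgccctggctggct
H2-Aa (chr17:34287828-34287973, minus strand): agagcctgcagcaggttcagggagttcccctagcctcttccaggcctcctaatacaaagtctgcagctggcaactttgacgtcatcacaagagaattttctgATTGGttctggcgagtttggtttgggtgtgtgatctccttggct
Oas1a holds 2 ISREs that overlap, starting at bases −20 and −14, with a GAS at −98. In Bst2 a GAS at −136 runs into ISREs at −130 and −124. Irf1, shown for the first of 2 RefSeq starts, has a GAS at −90 and a CCAAT box at −63, B2m an ISRE at −139 and a CCAAT box at −53, and H2-Aa a CCAAT box at −48. RefSeq promoters of 300 bases were found for 29 of the 36 genes. Some genes have more than 1, and the 29 had 35 promoters. The ISRE letters stood in 12 of 22 promoters of interferon-induced genes, 1 of 8 of class I genes (B2m) and 0 of 5 of class II genes, against 3.44% of all 32851 promoters. The GAS letters stood in 6, 1 and 0 of these promoters (8.30% of all), and CCAAT in 7, 7 and 4 (37.4%). A match is a run of letters and not a shown binding site.

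The libraries held 11661851 to 20890537 counts. Of the 9, wild-type library 1 and tumour library 2 were unlike the other 7: relative to the mean of the libraries their counts were lower for longer genes (Spearman's rho across genes −0.65 and −0.32, against 0.08 to 0.44 elsewhere). Many of the changes that rest on them, but not all, are also given without them. Foxl2 itself had 268, 227 and 388 CPM in the tumours, 184, 129 and 339 CPM in the hyperplastic ovaries and 203, 146 and 178 CPM in the wild-type ovaries, which sum both alleles and so do not check the genotype. The tissue label was checked against markers: of 10 granulosa markers 7 were higher and 3 lower in tumours than in wild type, and 4 higher and 6 lower in hyperplasia than in wild type, none past the threshold. Among them Inha stood at 2747 CPM in tumours, 1190.2 CPM in hyperplasia and 1462 CPM in wild type. All 7 oocyte and all 7 luteal markers were lower in tumours than in wild type, 4 and 3 of them past the threshold. Of all genes 49.1% were lower in that comparison and 1.6% passed, while in hyperplasia against wild type 50.3% were lower and 0% passed. Calls over all genes depended strongly on single libraries, as given in the closing sections. CPM is a count scaled to library size by TMM, given for libraries 1, 2 and 3 in that order. Fold changes are log2 values from a count model over all 9 libraries (edgeR quasi-likelihood test), and p-values were adjusted over the 16213 genes tested (Benjamini-Hochberg, threshold 0.05).

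None of the 35 genes that could be tested passed the threshold in any of the 4 comparisons, and the fitted changes in tumours lay mostly below 0. Between tumours and wild type 0 of 35 passed, where 1.6% of all genes did. The same 0 of 35 stood for hyperplasia against wild type (0% of all genes), for tumour against hyperplasia (0.185%) and for all mutant ovaries against wild type (0.0123%). At an unadjusted p below 0.05, 1 gene was lower in tumours than in wild type (11.7% of all genes were) and none was higher (8.41%). In tumours against hyperplasia 4 were lower (9.39%) and none higher (4.71%), and in hyperplasia against wild type 2 were higher (1.41%) and none lower (2.12%). The DESeq2 Wald test called 1 of the 35 (H2-Ab1, lower in tumours than in hyperplasia) and none in the other comparisons. That tool called 1747 of all genes in tumours against wild type and 816 in tumours against hyperplasia. Mx1, an antiviral GTPase, failed the filter on low counts, with 2 reads over the 3 tumours, 22 over the hyperplastic and 30 over the wild-type ovaries. Its tumour to wild-type ratio was 0.0975 (exact 95% counting interval 0.0113 to 0.384), and its tumour to hyperplasia ratio 0.130 (0.0148 to 0.529), intervals that cover counting error only.

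The signs of the fitted changes leaned further than the calls. In tumours against wild type 26 of 35 were below 0, against 49.1% of all genes, and in tumours against hyperplasia 32 of 35, against 46% of all genes. Hyperplasia against wild type had 14 of 35 below 0, where 50.3% of all genes were. These 2 tumour comparisons share the tumour libraries, and the 36 genes share every library, so the counts are a description. By role, the median change in tumours against wild type was −0.36 for interferon-induced, −0.018 for class I and −0.44 for class II genes, beside 0.011 for all genes. In tumours against hyperplasia the medians were −0.42, −0.12 and −0.51, beside 0.050 for all genes. For hyperplasia against wild type they were 0.10, 0.16 and 0.067, beside −0.0030. Single libraries carried part of this. The class II median in tumours against wild type was −0.10 without wild-type library 1, and the interferon-induced median was −0.77 without tumour library 1 (−0.94 in tumours against hyperplasia). Without wild-type library 1 and tumour library 2 together, the class I median in tumours against hyperplasia was −0.51, the class II median was −0.14 in tumours against wild type and 0.42 in hyperplasia against wild type, and 8 of 35 genes were below 0 in hyperplasia against wild type.

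Gene by gene, leaving out those 2 libraries changed the sign of 4 of 35 changes in tumours against wild type (B2m, H2-Eb1, Ifi35 and Ifit1), and moved 14 others nearer to 0 and 4 farther from it by more than 1.5 times. In tumours against hyperplasia 4 changed sign (H2-K1, Ifit1, Oasl2 and Usp18), 8 moved nearer and 7 farther. In hyperplasia against wild type 13 of 35 changed sign, and in all mutant ovaries against wild type 10 did. None of the 35 passed the threshold without them either, the smallest adjusted p being 0.106 (edgeR, tumours against hyperplasia).

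**Figure D1:**
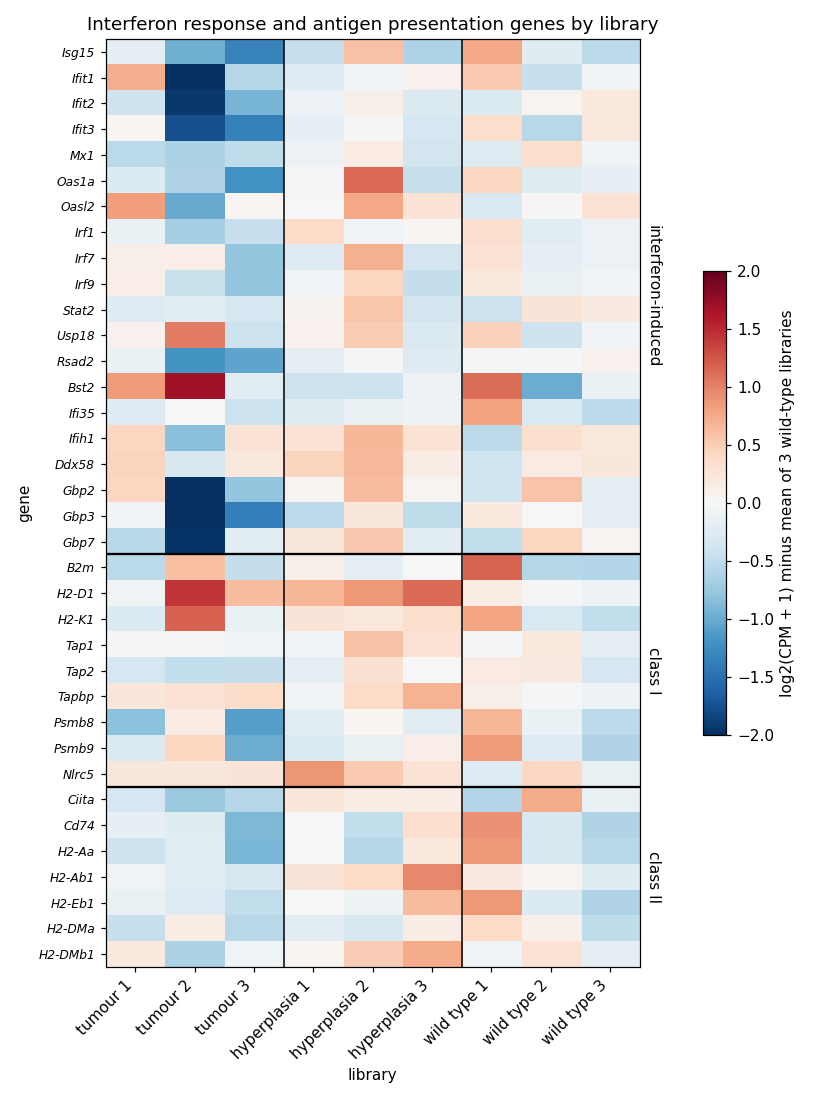
Each cell is log2(CPM + 1) of a gene (rows, by role) in a library (columns), minus the mean of the 3 wild-type libraries; red is higher, blue is lower, and the colours end at 2 in either direction. Tumour library 2 is the bluest column among interferon-induced genes and is red for H2-D1, H2-K1 and Bst2, and wild-type library 1 is red for B2m and most class II genes.

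The 95% intervals show which sizes of change lay outside them, given the spread of these libraries. They were taken gene by gene, without adjustment for the number of genes. Leaving out 1 library could move a change widely, as for B2m in tumours against wild type (−0.76 to 0.55). In tumours against wild type the interval lay within 2-fold in both directions for 10 of 35 genes, kept below a 2-fold rise for 29 and above a 2-fold fall for 15. In tumours against hyperplasia these counts were 5, 30 and 8. For all 7 class II genes the interval kept below a 2-fold rise in both comparisons.

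**Figure D2:**
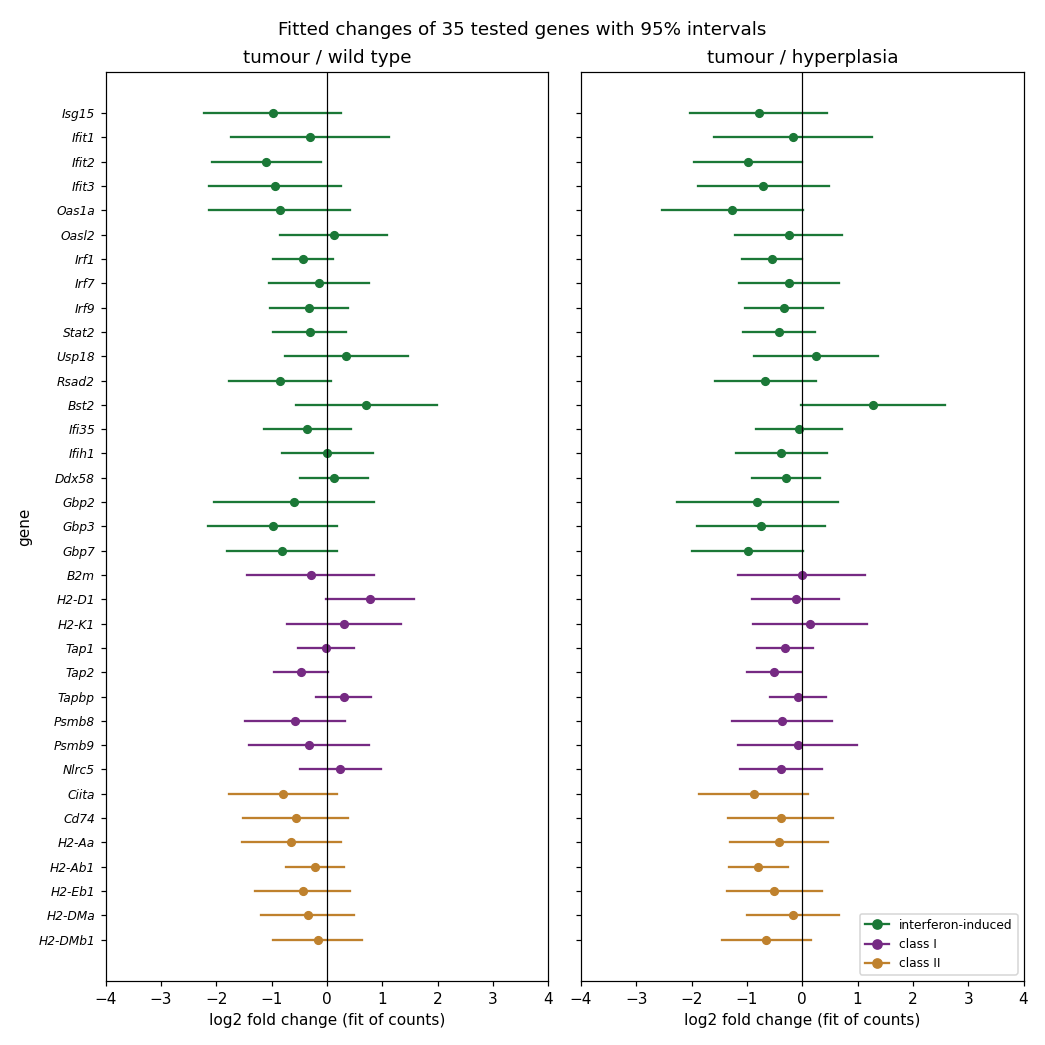
Points are fitted log2 fold changes of the 35 tested genes and bars their 95% intervals, with tumours over wild type on the left, tumours over hyperplasia on the right, and colours by role. In the right panel 32 of 35 points lie below 0, and Bst2 lies farthest to the right at 1.28.

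Among interferon-induced genes the lowest fitted changes in tumours against wild type were those of Ifit2, Gbp3, Isg15 and Ifit3, and against hyperplasia those of Oas1a, Ifit2, Gbp7 and Gbp2. None passed the threshold. Ifit2, an antiviral protein with tetratricopeptide repeats, had 8.54, 2.34 and 5.71 CPM in the tumours, 10.8, 12.8 and 9.44 CPM in the hyperplastic ovaries and 9.55, 12.3 and 13.9 CPM in the wild-type ovaries. All 3 tumours lay below all 6 other ovaries. The change was −1.10 ± 0.44 (SE) against wild type (adjusted p = 0.202, edgeR) and −0.99 ± 0.44 against hyperplasia (adjusted p = 0.353, edgeR), and without the 2 libraries apart by gene length −0.90 and −0.65. Groups that did not overlap were found in tumours against wild type for 3 tested interferon-induced genes, Ifit2, Oas1a and Rsad2, all lower. Over all roles 4 were lower (13.4% of all genes were) and 1 was higher (10.6%).

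Oas1a, which senses viral RNA and makes the oligoadenylates that activate RNase L, had 3.77, 2.83 and 1.51 CPM in the tumours, 4.71, 11.7 and 3.21 CPM in the hyperplastic ovaries and 6.71, 3.89 and 4.14 CPM in the wild-type ovaries. The tumours were lowest, but the hyperplastic ovaries spread widely, with library 2 far above the other 8 libraries, and tumours overlapped hyperplasia. The change was −1.26 ± 0.57 against hyperplasia (adjusted p = 0.359, edgeR) and −0.86 ± 0.56 against wild type. Its counts were not whole in any library, as RSEM divides reads that close Oas1 copies share, so its values are uncertain. Rsad2, the antiviral enzyme viperin, had 5.83, 2.24 and 2.60 CPM in the tumours, 5.51, 6.30 and 5.22 CPM in the hyperplastic ovaries and 6.27, 6.24 and 6.90 CPM in the wild-type ovaries, with each tumour below each wild-type ovary (−0.85 ± 0.41, adjusted p = 0.282, edgeR).

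Irf1, a transcription factor that interferon gamma induces, had 49.4, 33.8 and 39.4 CPM in the tumours, 71.6, 51.8 and 55.8 CPM in the hyperplastic ovaries and 68.6, 46.6 and 50.2 CPM in the wild-type ovaries. The tumours lay below the hyperplastic ovaries without overlap (−0.55 ± 0.24, adjusted p = 0.351, edgeR) and overlapped wild type, since tumour library 1 lay above 1 of the wild-type ovaries. Against wild type the change was −0.43 ± 0.24, or −0.15 without the 2 libraries. Bst2 (tetherin), which holds budding viruses at the cell membrane, went the other way. It had 262, 466 and 125 CPM in the tumours, 108, 109 and 135 CPM in the hyperplastic ovaries and 316, 72.3 and 132 CPM in the wild-type ovaries, a higher mean in tumours, whose wide spread overlapped both other groups. The change of 1.28 ± 0.58 against hyperplasia had an adjusted p of 0.361 (edgeR), and the one against wild type was 0.71 ± 0.57. Leaving out tumour library 2 gave 0.72 and 0.16, leaving out wild-type library 1 gave 1.48 against wild type, and without both they were 0.70 and 0.90. Bst2 was the most abundant interferon-induced gene at a mean of 436 TPM, where the median of the 20 was 12.2 TPM. TPM are scaled for gene length and depth, so that levels of different genes can be compared.

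The other tested interferon-induced genes ran from −0.98 to 0.35 in tumours against wild type. Isg15, a ubiquitin-like modifier, had 8.21, 4.39 and 3.19 CPM in the tumours, 6.64, 14.9 and 5.90 CPM in the hyperplastic ovaries and 17.0, 7.95 and 6.32 CPM in the wild-type ovaries. Wild-type library 1 and hyperplasia library 2 were high and the groups overlapped. Gbp3 had 32.5, 6.34 and 12.5 CPM in the tumours, 23.2, 39.8 and 23.5 CPM in the hyperplastic ovaries and 38.7, 33.6 and 29.5 CPM in the wild-type ovaries, and Ifit3 had 12.7, 2.93 and 4.20 CPM in the tumours, 10.8, 12.2 and 9.49 CPM in the hyperplastic ovaries and 16.0, 8.07 and 14.4 CPM in the wild-type ovaries. In both, tumour libraries 2 and 3 were the lowest of the 9 and tumour library 1 lay among the others. Usp18, the protease that removes Isg15, had 5.69, 11.8 and 3.70 CPM in the tumours, 5.73, 7.97 and 4.17 CPM in the hyperplastic ovaries and 7.66, 3.77 and 5.12 CPM in the wild-type ovaries, with its highest level in tumour library 2. The guanylate-binding GTPases Gbp2, Gbp3 and Gbp7, which interferon gamma induces, had changes of −0.60, −0.98 and −0.81 in tumours against wild type, and those of Isg15 and Ifit3 were −0.98 and −0.95. Closer to 0 were the signalling factors Stat2 (−0.31), Irf9 (−0.33) and Irf7 (−0.14), the RNA sensors Ifih1 (0.0049) and Ddx58 (0.13), Oasl2 (0.12), Ifit1 (−0.30), Ifi35 (−0.36) and Usp18 (0.35). Adjusted p for these 14 ran from 0.328 to 0.997 (edgeR). Without the 2 libraries the tumour changes against wild type were −0.33 for Gbp2, −0.52 for Gbp3, −0.68 for Gbp7, −0.35 for Isg15 and −0.43 for Ifit3. They were 0.053 for Usp18, 0.47 for Ifit1, 0.031 for Ifi35, −0.57 for Stat2, −0.18 for Irf9, 0.057 for Ifih1 and 0.31 for Oasl2. Gbp7 had 26.7, 9.56 and 34.1 CPM in the tumours, 46.7, 58.2 and 34.5 CPM in the hyperplastic ovaries and 28.1, 54.3 and 41.5 CPM in the wild-type ovaries. Its tumours lay below hyperplasia without overlap (−0.98 ± 0.45, or −0.63 without the 2 libraries).

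The tumours differed widely from each other. Gbp2 had 108, 11.1 and 46.0 CPM in the tumours, 82.9, 125 and 82.5 CPM in the hyperplastic ovaries and 60.4, 119 and 70.4 CPM in the wild-type ovaries. Tumour library 1 stood near the top of the 9 and tumour library 2 at the bottom. Ifit1 was 23.8, 2.63 and 9.16 CPM in the tumours, which spans all other libraries. Tumour library 2 was the lowest of the 9 for 10 of the 19 tested interferon-induced genes, and hyperplasia library 2 the highest for 9. That same tumour library had the highest level of H2-D1, H2-K1, Bst2 and Usp18. It is 1 of the 2 libraries that stood apart by gene length, and the part of that in these values was not tested.

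**Figure D3:**
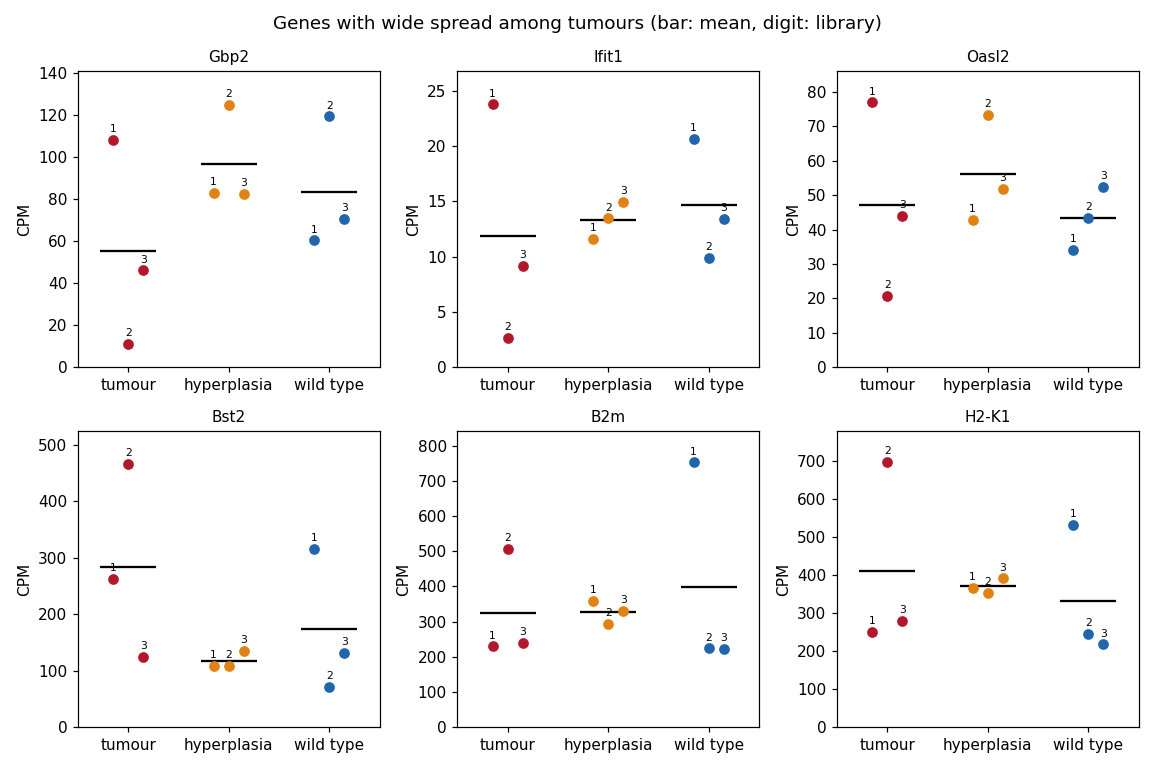
CPM of 6 genes by library, with tumours, hyperplasia and wild type from left to right, digits naming the library and bars the group mean. For Gbp2, Ifit1 and Oasl2 tumour library 2 lies lowest of all 9, and for Bst2 and H2-K1 it lies highest.

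Class I genes showed no common direction in tumours against wild type, with 4 of 9 above 0 and 5 below. In tumours against hyperplasia 8 of 9 were below 0, where 46% of all genes were. B2m, the light chain of every class I molecule, was the most abundant of the 36 at 751 TPM and had 230.3, 508 and 239 CPM in the tumours, 359.9, 294 and 332 CPM in the hyperplastic ovaries and 752, 224 and 222 CPM in the wild-type ovaries. Wild-type library 1 and tumour library 2 were the highest, and all groups overlapped. The change was −0.29 ± 0.51 against wild type (95% interval −1.44 to 0.85) and turned to 0.55 without wild-type library 1, −0.76 without tumour library 2 and 0.047 without both.

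H2-D1, a classical heavy chain, had the class I change farthest from 0 in tumours against wild type, while Tap2 had it against hyperplasia. H2-D1 had 177, 504 and 287 CPM in the tumours, 298, 341 and 414 CPM in the hyperplastic ovaries and 207, 181 and 175 CPM in the wild-type ovaries. Every hyperplastic ovary lay above every wild-type ovary, while the tumours ran from the level of wild type to the highest value of all. In hyperplasia the change against wild type was 0.90 ± 0.35 (unadjusted p = 0.0308, adjusted p = 0.999, edgeR), tumours against wild type 0.78 ± 0.35 (adjusted p = 0.259), and all mutant ovaries against wild type 0.84 ± 0.32 (adjusted p = 0.341). Without tumour library 2 the H2-D1 change in tumours against wild type was 0.31, and 0.36 without wild-type library 1 as well. In tumours against hyperplasia it was −0.12 ± 0.35, or −0.62 without both. The partner heavy chain H2-K1 had 252, 696 and 280.1 CPM in the tumours, 366, 354 and 391 CPM in the hyperplastic ovaries and 532, 246 and 218 CPM in the wild-type ovaries, with overlap between all groups and a change of 0.30 ± 0.46 against wild type. That became 0.82 without wild-type library 1, −0.32 without tumour library 2 and 0.17 without both. Both heavy chains share reads with other H2 genes, and their counts were not whole in any library.

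The genes that supply peptides to class I did not share a direction in tumours against wild type. Against hyperplasia Tap1 (−0.31), Tap2 (−0.51), Tapbp (−0.072), Psmb8 (−0.36) and Psmb9 (−0.085) were all below 0, with none past the threshold. Tap2, which with Tap1 forms the transporter that brings peptides into the endoplasmic reticulum, had 53.0, 48.0 and 48.5 CPM in the tumours, 60.0, 84.8 and 68.5 CPM in the hyperplastic ovaries and 76.5, 77.1 and 53.5 CPM in the wild-type ovaries. All 3 tumours lay below all 6 other ovaries (−0.47 ± 0.22 against wild type, adjusted p = 0.265; −0.51 ± 0.22 against hyperplasia, adjusted p = 0.333; edgeR). Tap1 had 25.4, 25.6 and 23.9 CPM in the tumours and 24.4, 29.3 and 22.1 CPM in the wild-type ovaries, with a change of −0.018 ± 0.23 against wild type (95% interval −0.53 to 0.49), or −0.087 without the 2 libraries. Tapbp (tapasin), which bridges the transporter and the heavy chain, had 186, 193 and 203 CPM in the tumours, 151, 205 and 255 CPM in the hyperplastic ovaries and 171, 155 and 146 CPM in the wild-type ovaries. The tumours lay above wild type without overlap, by 0.30 ± 0.22 (adjusted p = 0.501, edgeR), and within the hyperplastic range. Tapbp overlaps Zbtb22 on the same strand, so some of its reads are uncertain. Counts were not whole in each of the 9 libraries for Tap1 and Tapbp and in 8 of the 9 for Tap2, so these values are uncertain too.

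Psmb8 and Psmb9, catalytic subunits of the immunoproteasome, had changes of −0.58 ± 0.40 and −0.33 ± 0.48 in tumours against wild type. Psmb8 had 21.7, 44.1 and 17.6 CPM in the tumours, 33.2, 40.3 and 33.8 CPM in the hyperplastic ovaries and 62.3, 35.5 and 27.1 CPM in the wild-type ovaries. Psmb9 had 12.6, 21.5 and 7.39 CPM in the tumours, 12.7, 14.0 and 17.2 CPM in the hyperplastic ovaries and 29.0, 13.0 and 9.94 CPM in the wild-type ovaries. In both, wild-type library 1 was the highest of the 9, tumour library 3 the lowest, and the groups overlapped. The Psmb8 change was −0.17 without wild-type library 1, −1.08 without tumour library 2 and −0.69 without both, and that of Psmb9 0.27, −0.79 and −0.22 in the same order. Nlrc5, the class I transactivator, had 7.08, 7.02 and 7.22 CPM in the tumours, 11.6, 8.91 and 7.33 CPM in the hyperplastic ovaries and 4.72, 8.13 and 5.23 CPM in the wild-type ovaries. The tumours hardly varied and lay below every hyperplastic ovary (−0.38 ± 0.33, adjusted p = 0.636, edgeR), but inside the wild-type range (0.24 ± 0.33, or 0.073 without the 2 libraries).

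All 7 class II genes had a fitted change below 0 in tumours, −0.79 to −0.17 against wild type and −0.88 to −0.17 against hyperplasia, and none passed the threshold in either. H2-Ab1, the beta chain of the I-A molecule, had the smallest p of all 36 genes. It had 47.3, 43.0 and 39.7 CPM in the tumours, 60.3, 66.4 and 98.6 CPM in the hyperplastic ovaries and 57.1, 51.8 and 42.4 CPM in the wild-type ovaries. Each tumour lay below each hyperplastic ovary, each hyperplastic ovary above each wild-type ovary, and tumours overlapped wild type. Tumours against hyperplasia gave −0.79 ± 0.24 (unadjusted p = 0.00794, adjusted p = 0.196, edgeR). The DESeq2 Wald test gave −0.79 with an adjusted p of 0.0486, the only call of a member, and the adjusted p over all alternatives ran from 0.0486 to 0.378. Hyperplasia against wild type gave 0.57 ± 0.23 (adjusted p = 0.999, edgeR). Over all roles 2 genes, H2-D1 and H2-Ab1, were higher in hyperplasia than in wild type without overlap (4.63% of all genes were), and none was lower without overlap (5.18%).

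Its partner H2-Aa had 70.2, 80.3 and 49.6 CPM in the tumours, 95.2, 63.4 and 109 CPM in the hyperplastic ovaries and 173, 75.5 and 64.0 CPM in the wild-type ovaries. Wild-type library 1 was the highest of the 9 and the groups overlapped. The change was −0.64 ± 0.39 in tumours against wild type (adjusted p = 0.409, edgeR). It shrank to −0.064 without wild-type library 1 and to −0.25 without tumour library 2 as well. Cd74, the invariant chain that guards the peptide groove and the most abundant class II gene at 299.6 TPM, had 198, 187 and 118 CPM in the tumours, 219.8, 157 and 281 CPM in the hyperplastic ovaries and 419, 178 and 146 CPM in the wild-type ovaries. Here too wild-type library 1 was highest, and without it the change of −0.56 ± 0.42 in tumours against wild type became 0.053, or −0.062 without both libraries apart by gene length. H2-Eb1, the beta chain of I-E, had 65.8, 61.0 and 51.7 CPM in the tumours, 72.1, 67.9 and 113 CPM in the hyperplastic ovaries and 134, 60.3 and 47.7 CPM in the wild-type ovaries. Tumours and hyperplasia did not overlap (−0.51 ± 0.38). Against wild type the change was −0.44 ± 0.38, which turned to 0.14 without wild-type library 1 and 0.094 without both.

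Ciita, the coactivator that class II genes depend on, had 3.91, 2.73 and 3.19 CPM in the tumours, 6.37, 5.87 and 5.90 CPM in the hyperplastic ovaries and 3.13, 9.36 and 4.60 CPM in the wild-type ovaries. All tumours lay below all hyperplastic ovaries, which were nearly equal, while wild-type library 1 lay within the tumour range. The changes were −0.88 ± 0.44 against hyperplasia (adjusted p = 0.401, edgeR) and −0.79 ± 0.44 against wild type (adjusted p = 0.35, edgeR). H2-DMb1 and H2-DMa, the chains of the H2-DM molecule that swaps the invariant chain peptide for others, had changes of −0.65 ± 0.36 and −0.17 ± 0.37 against hyperplasia, and of −0.45 and −0.48 without the 2 libraries. H2-DMb1 had 8.81, 4.49 and 7.06 CPM in the tumours, 7.82, 11.0 and 13.3 CPM in the hyperplastic ovaries and 7.01, 9.48 and 6.44 CPM in the wild-type ovaries. Hyperplasia library 3 was highest and tumour library 2 lowest, with overlap between all groups. H2-DMa had 6.02, 9.65 and 5.54 CPM in the tumours, 7.33, 6.74 and 9.73 CPM in the hyperplastic ovaries and 11.8, 9.36 and 5.81 CPM in the wild-type ovaries. It overlaps the far more abundant Brd2 on the other strand, as Ciita does Dexi, and whether strand was used in counting is not stated, so the values of both are uncertain. Over all roles, 8 genes lay lower in tumours than in hyperplasia without overlap (12.4% of all genes did): Ifit2, Irf1, Gbp7, Tap2, Nlrc5, Ciita, H2-Ab1 and H2-Eb1. None lay higher (9.54%).

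The class II genes stood beside a larger difference in leukocyte genes. Ptprc (CD45), the phosphatase on all leukocytes, had 6.42, 6.83 and 7.14 CPM in the tumours, 38.2, 23.8 and 22.7 CPM in the hyperplastic ovaries and 18.5, 23.8 and 21.6 CPM in the wild-type ovaries. It fell in tumours against wild type (−1.65 ± 0.27, adjusted p = 0.0355, edgeR) and against hyperplasia (−2.05 ± 0.27, adjusted p = 0.0363). Cd53 and the integrin chain Itgb2 fell as well, by 2.21 and 2.23 on the log2 scale against wild type (adjusted p = 0.0292 and 0.032, edgeR). So did Itgam and Itgax, integrins of macrophages and dendritic cells, by 1.65 and 2.59 (adjusted p = 0.0451 and 0.0404). Each was the only call of its list in that comparison: 11 of 12 macrophage markers were below 0 against both other groups, but of the 7 dendritic cell markers 4 were below 0 and 3 above in each. Without wild-type library 1 and tumour library 2 these 5 calls were lost, with changes of −1.77 (adjusted p = 0.0668, edgeR), −2.47 (adjusted p = 0.0599, edgeR), −2.36 (adjusted p = 0.0707, edgeR), −1.61 (adjusted p = 0.0888, edgeR) and −3.07 (adjusted p = 0.0667, edgeR). They were lost too with a term for the title stem that hyperplasia library 3 and tumour library 3 share (adjusted p 0.0523 to 0.0982, edgeR), under which 0 of all genes passed in tumours against wild type. The Ptprc call against hyperplasia was lost under both alternatives. The 6 pan-leukocyte genes summed to 45.9 to 74.0 CPM in tumours, 160.4 to 275 CPM in hyperplasia and 162 to 182 CPM in wild type, and all 6 were below 0 in tumours against both, with a median of −1.64 against wild type. The 12 macrophage markers summed to 198 to 604, 712 to 1101 and 833 to 1119 CPM in the same order of groups, the 7 dendritic cell markers to 26.6 to 79.1, 59.8 to 87.2 and 41.3 to 65.2 CPM, and the 5 B cell markers to 0.927 to 1.66, 1.29 to 3.85 and 2.99 to 5.07 CPM. No marker of these lists was at 0 in a whole group. In whole ovaries fewer cells of a type and less RNA per cell cannot be told apart, and the part of the leukocyte genes in the class II values was not tested.

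The class II sum was also set against Ptprc, the only leukocyte gene used for this. Ptprc was already known to be lower in tumours by more than the class II genes. A ratio that is not lower in tumours therefore follows from the values above, and it is given as a description only. The 7 class II genes summed to 614, 377 and 463 TPM in tumours, 812, 651 and 1032 TPM in hyperplasia and 913, 698 and 546 TPM in wild type. Their sum over Ptprc, both in TPM, was 254, 258 and 180.0 in tumours, 53.9, 70.4 and 119 in hyperplasia and 203, 74.1 and 62.9 in wild type. Tumours lay above all hyperplastic ovaries and above wild-type libraries 2 and 3, while wild-type library 1 lay within their range. Both wild-type library 1 and tumour library 2, which holds the highest ratio, stood apart by gene length. The part of that in the ratios was not tested. Cd74 made up 47.9, 44.7 and 40.3% of the class II sum in tumours, 45.1, 39.7 and 42.5% in hyperplasia and 48.1, 43.6 and 44.2% in wild type, so the makeup of the sum overlapped between groups.

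**Figure D4:**
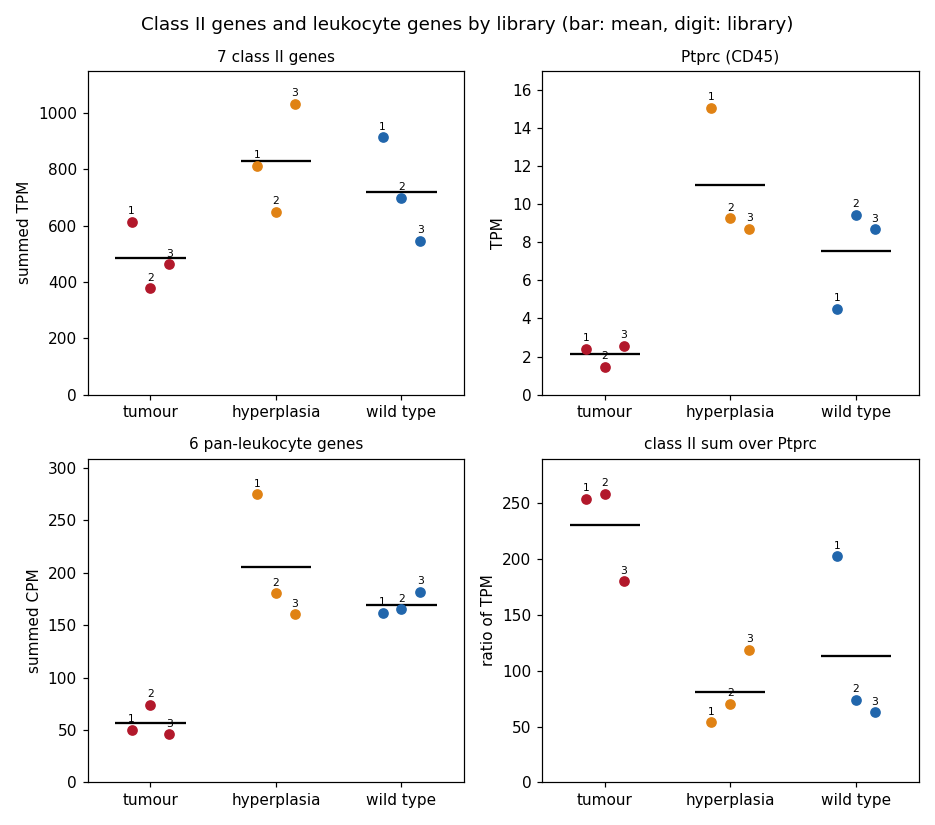
Summed class II TPM, Ptprc TPM, summed CPM of 6 pan-leukocyte genes, and the class II sum divided by Ptprc TPM, by library, with digits naming the library and bars the group mean. The tumours hold the lowest Ptprc and pan-leukocyte values, while 2 of the 3 tumours have a ratio above every other ovary. Tumour library 2, which stood apart by gene length, is 1 of these 2.

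Other genes of the H2 region on chromosome 17 split the tumour and the hyperplasia libraries within their groups, while all 3 wild-type libraries read them. The class II gene H2-Ea-ps, annotated as a polymorphic pseudogene, had 16.0, 18.7 and 0.0840 CPM in the tumours, 21.5, 0 and 0 CPM in the hyperplastic ovaries and 95.1, 18.3 and 16.2 CPM in the wild-type ovaries. It was at 0 in hyperplasia libraries 2 and 3 and at 1 read in tumour library 3. The class I gene H2-Q1 had 2.12, 7.80 and 0.0840 CPM in the tumours, 3.85, 0 and 0 CPM in the hyperplastic ovaries and 7.56, 2.06 and 2.59 CPM in the wild-type ovaries, and was at 0 or 1 read in those 3 libraries. Of the members, 12 lie on chromosome 17, from Tapbp to H2-D1. In mice of some H2 haplotypes H2-Ea is not transcribed. The strain of the mice is not known here, and the part of the H2 type of the mice in the H2 values was not tested. Since the split was uneven between the groups, a difference in H2 type could not be fully told apart from lesion. This holds for the H2-D1 and H2-Ab1 rises in hyperplasia too.

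**Figure D5:**
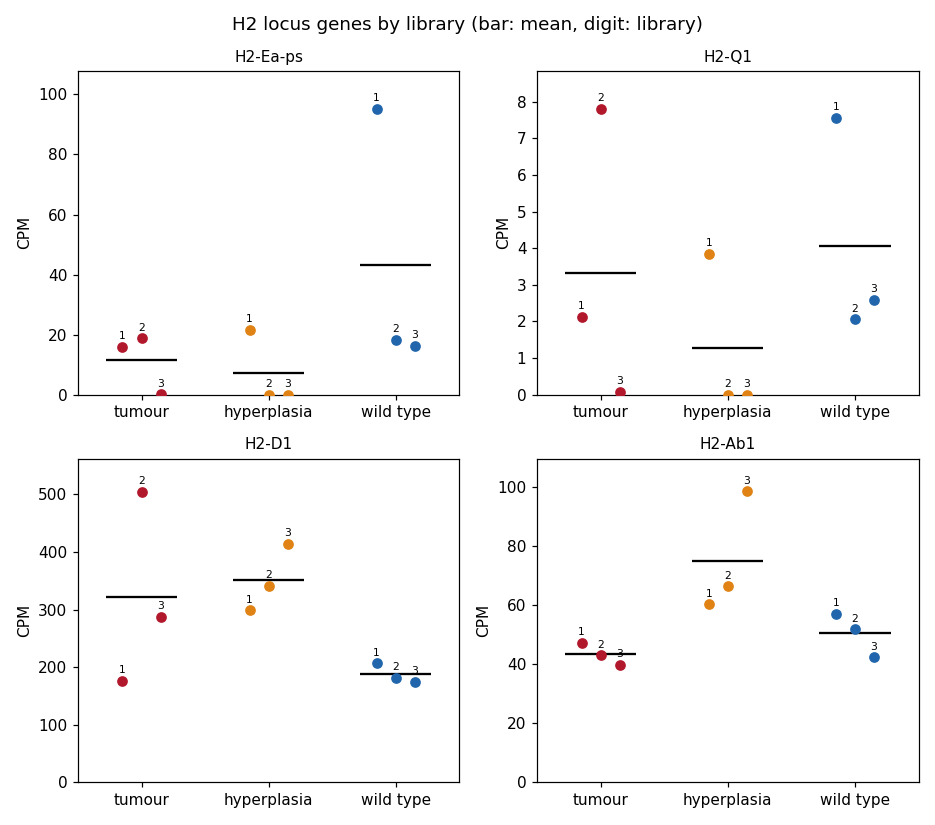
CPM of H2-Ea-ps, H2-Q1, H2-D1 and H2-Ab1 by library, with digits naming the library and bars the group mean. H2-Ea-ps and H2-Q1 lie at or near 0 in tumour library 3 and hyperplasia libraries 2 and 3 and above 1 CPM in the other 6. H2-D1 and H2-Ab1 are well above 0 in every library, and the part of the H2 type in their levels was not tested.

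Of the pathway upstream, the interferon genes themselves were barely read. Ifna1, Ifna2, Ifna4, Ifnk, Ifnl2 and Ifnl3 had 0 counts in all 9 libraries, and Ifnb1, Ifng, Ifne and Ifnz had at most 3 reads in any library. A count of 0 allows up to 0.0805 CPM over the tumours, 0.0562 CPM over hyperplasia and 0.0551 CPM over wild type. Of the 12 receptors and transducers tested, 0 passed the threshold in tumours against wild type, where 1.6% of all genes did. Jak1, the kinase shared by all interferon receptors, came nearest and was higher in each tumour than in each other ovary, at 709.9, 1297 and 911 CPM in the tumours, 605, 413 and 629 CPM in the hyperplastic ovaries and 289.9, 451 and 469.6 CPM in the wild-type ovaries (1.27 ± 0.33, adjusted p = 0.0784, edgeR; 0.79 without the 2 libraries apart by gene length). Next was the interferon gamma receptor chain Ifngr2, at 108, 476 and 118 CPM in tumours and 96.5, 86.6 and 80.4 CPM in wild type, where tumour library 2 lay far above the other 8 (1.41 ± 0.52, adjusted p = 0.176). Without that library the Ifngr2 change was 0.37, and 0.41 without both.

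Among 18 sensors and their signalling genes, Aim2, a sensor of cytoplasmic DNA, fell in tumours against wild type. It had 0.397, 0.195 and 0.336 CPM in the tumours, 2.46, 2.90 and 2.16 CPM in the hyperplastic ovaries and 1.29, 1.71 and 1.72 CPM in the wild-type ovaries, with a change of −2.29 ± 0.45 (adjusted p = 0.0471, edgeR). The tumours lay far below all other ovaries, but without the 2 libraries that stood apart the call was lost, at −2.22 (adjusted p = 0.0801, edgeR). Over the 16 alternatives the Aim2 change ran from −2.52 to −1.14 and passed in 2. The lowest tumour values of Aim2, and of Gbp8, H2-Q10 and Xcr1 given below, rest on few reads. In a tumour library 3 reads make 0.198 to 0.257 CPM of its total counts, before TMM scaling. No other sensor passed, so 1 of 18 did, where 1.6% of all genes passed. Of 50 further interferon-induced genes tested, 43 were below 0 in tumours against wild type (49.1% of all genes were), with a median of −0.66 (0.011 for all genes). The mean log2(CPM + 1) of that list, with all 51 genes, was 3.69, 2.90 and 3.21 in the tumours and 3.82, 3.80 and 3.78 in the wild-type ovaries. Tumour library 1 lay close to wild type and tumour library 2, apart by gene length, was lowest. The median and count are not given without it. Gbp8 was the only one of the 50 that passed (1.6% of all genes did), with a change of −2.53 ± 0.48 (adjusted p = 0.0453, edgeR), at 0.331, 0.390 and 0.588 CPM in tumours and 2.98, 2.94 and 1.72 CPM in wild type, and without those 2 libraries its call was lost, at −2.37 (adjusted p = 0.101, edgeR).

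The further class I pathway genes had 1 call of 24 (1.6% of all genes), the H2-Q10 heavy chain, which fell by 4.31 ± 0.76 on the log2 scale in tumours against wild type (adjusted p = 0.0404, edgeR). It had 0.463, 1.37 and 0.168 CPM in the tumours, 4.82, 11.9 and 14.6 CPM in the hyperplastic ovaries and 11.6, 7.83 and 19.5 CPM in the wild-type ovaries, and its call was lost without the 2 libraries, at −5.39 (adjusted p = 0.0627, edgeR). Reads shared with other H2-Q genes make it uncertain. The calls of Aim2, Gbp8 and H2-Q10 were also lost with the title stem term. The further class II pathway genes had 0 calls of 15 (1.6% of all genes), with 13 below 0 in tumours against wild type (49.1%) and a median of −0.85 (0.011). The lowest p among them belonged to Ctss, the cathepsin that trims the invariant chain, at 15.2, 57.1 and 19.5 CPM in tumours and 229.8, 107 and 123 CPM in wild type (−2.33 ± 0.56, adjusted p = 0.0692, edgeR). March1, a ubiquitin ligase that removes class II molecules from the cell surface, came next (−1.98 ± 0.52, adjusted p = 0.0844, edgeR). Wild-type library 1 and tumour library 2 held the highest Ctss of their groups, and neither change is given without them. The factors Rfx5, Rfxap and Rfxank, which bind class II promoters beside Ciita, had changes of 0.33, 0.20 and −0.13, or 0.060, 0.23 and 0.035 without the 2 libraries.

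All mutant ovaries were also set against wild type as 1 group. Of 35 genes, 23 were below 0 (50.9% of all genes), with medians of −0.19 for interferon-induced, 0.14 for class I and −0.26 for class II genes, beside −0.0092 for all genes. H2-D1 was the only gene at an unadjusted p below 0.05 and was higher (3.97% of all genes were), with none lower (7.88%). No gene was higher (1.63%) or lower (2.69%) in all 6 mutant ovaries without overlap. Without wild-type library 1 the class II median became 0.15 and the count below 0 became 14.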

How the data were processed

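RNA-seq of 9 mouse ovaries was analysed in 3 groups of 3. Trizol was used for the RNA and a stranded TruSeq kit for mRNA libraries, per the labels' protocols. RSEM 1.3.1, STAR 2.7.1a, Picard 2.8.1, FastQC and the build GRCm38 are listed, without their roles, per the submitters' processing notes. The authors deposited a gene table per sample with RSEM expected counts, which are not normalised. TPM, also deposited, correct for length and depth and were used for levels between genes and in 1 alternative. The deposited FPKM values served only to compare libraries as sums. Of the expected counts above 0, 25.6% were not whole (tolerance 0.005), as RSEM splits reads between near copies. They were not whole in each of the 9 libraries for 8 of the 36 genes: Ifit3, Oas1a, H2-D1, H2-K1, Tap1, Tapbp, Psmb9 and H2-DMb1. For Ifit1, Gbp7, Tap2 and H2-DMa they were not whole in 8 of the 9.

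Expected counts were rounded and tested with edgeR 4.0.16 in R 4.3.3 (TMM factors 0.797 to 1.078, filterByExpr with minimum counts of 10 and, in total, 15, quasi-likelihood test, 1 fit of 3 groups with 6 residual degrees of freedom, 4 contrasts). Symbols and coordinates came from GENCODE M21 for GRCm38, and promoters from RefSeq (GRCm38.p6). Alternatives were DESeq2 1.42.0, its size factors in edgeR, no low-count filter, limma 3.58.1 on log2(TPM + 1), only the groups compared, each library left out, and a term for the shared title stem. Leaving out both libraries apart by gene length, and the count of genes below 0, were added after seeing the data. On simulated data for tumour against wild type (16213 genes) the test recovered 45 of 100 genes changed by 2 on the log2 scale and 80 of 100 changed by 4. It made 7 false calls. Smaller changes were not simulated, while the members ran from −1.10 to 0.78 in this comparison, so recovery at their sizes is not known. No 2 libraries agreed within sampling noise (smallest chi-square per degree of freedom 26.9).

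The genes and lists were chosen with earlier results of these data known. Described in full were, in each role, the 4 genes with the smallest unadjusted p in any comparison and the one with the highest mean TPM. For other pathway lists these were called genes, otherwise the 2 with the smallest p in tumours against wild type, and those at 0 counts; Rfx5, Rfxap, Rfxank, H2-Ea-ps, H2-Q1 and the genes in the closing section were added after their values were seen. Protein identities between family members were not computed.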

Additional observations from a re-analysis of the deposited data

Results flagged for a closer look

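Of the pathway and leukocyte genes outside the 36, 6 were picked out for a difference between the lesions, read as tumour against hyperplasia, which is also the difference of the changes that each lesion had against the shared wild-type libraries. For 4 of them it passed the edgeR test: Ptprc (−2.05 on the log2 scale, adjusted p = 0.0363), Cd53 (−2.35, adjusted p = 0.0363), Itgb2 (−2.91, adjusted p = 0.0305) and Itgax, an integrin of dendritic cells and macrophages (−3.58, adjusted p = 0.0363). All 4 calls were lost without the 2 libraries apart by gene length, and those of Ptprc and Cd53 also with a term for the shared title stem.

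For the other 2, every tumour lay below every wild-type ovary and every hyperplastic ovary above it, but the difference did not pass. Aim2 gave −2.96 (adjusted p = 0.0519, edgeR). Xcr1, a chemokine receptor of cross-presenting dendritic cells, had 0.530, 0.0975 and 0.672 CPM in the tumours, 2.30, 2.61 and 3.02 CPM in the hyperplastic ovaries and 0.746, 1.47 and 1.78 CPM in the wild-type ovaries and gave −2.56 (adjusted p = 0.143, edgeR). None of the 36 genes met either condition. Itgax and Xcr1 belong to the list of 7 dendritic cell markers, of which 4 were below 0 and 3 above in tumours against hyperplasia.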

How the results depend on the processing

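At this depth only Mx1 of the 36 genes failed the count filter, and for the other 35 the median SE in tumour against wild type was 0.40 on the log2 scale, with 3 libraries a group. The number of members called stayed at 0 in all 4 comparisons under every alternative run, apart from 1 in tumour against hyperplasia with the DESeq2 Wald test. The number of members below 0 ran from 23 to 30 in tumour against wild type and from 29 to 34 in tumour against hyperplasia, where the reported counts were 26 and 32. For hyperplasia against wild type it was 6 with limma, 8 without the 2 libraries apart by gene length and 8 to 20 with 1 library left out. In all mutant ovaries against wild type it was 14 without these 2 libraries and 14 to 25 with 1 left out. Limma on log2(TPM + 1) moved the median of all genes by −0.12 in tumour against wild type, 0.13 in hyperplasia against wild type and −0.23 in tumour against hyperplasia.

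The count of all genes called depended strongly on the method and on single libraries, and the cause was not tested. In tumour against wild type (259) it was 1747 with the DESeq2 Wald test, 726 with no low-count filter, 428 with limma, 0 with a term for the shared title stem, 8 without the 2 libraries and 0 to 404 with 1 left out, the lowest without tumour library 3 or wild-type library 3. In tumour against hyperplasia (30) the counts were 816, 199, 76, 12 and 0 in that order, 1 with only the groups compared, and 0 to 128 with 1 left out, the lowest without tumour library 3. For hyperplasia against wild type (0) they were 18 with DESeq2, 2 with no filter, 1 with limma, 3 with only the groups compared, 2 without the 2 libraries and 0 to 3 with 1 left out. In all mutant ovaries against wild type (2) they were 591, 333 and 173 by the first 3 of these, 0 with the title stem term and 0 to 134 with 1 left out. The 12 calls reported for pathway and leukocyte genes outside the list kept their sign under all 16 alternatives, but passed in 2 to 9 of them, and each was lost when any 1 of tumour libraries 1 and 3 and wild-type libraries 1 and 3 was left out.

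Medians by role moved by more than their spread between libraries in these cases. The class I median in tumour against hyperplasia was −0.54 with limma, −0.51 without the 2 libraries and −0.48 to −0.0028 with 1 left out. The class II median without the 2 libraries was −0.14 in tumour against wild type, 0.42 in hyperplasia against wild type and 0.19 in all mutant ovaries against wild type, and with 1 left out −0.71 to −0.10, −0.20 to 0.43 and −0.49 to 0.15. The interferon-induced median with 1 left out was −0.77 to −0.33 in tumour against wild type and −0.94 to −0.26 in tumour against hyperplasia, the lowest both times without tumour library 1.

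For the 14 genes described in full, 832 of 882 values kept direction and side of the threshold, 49 changed sign without a call on either side, and H2-Ab1 gained its call with DESeq2. With limma, signs changed as follows. In tumour against wild type it gave −0.22 for Nlrc5. In hyperplasia against wild type it gave 0.039 for Ifit2, 0.12 for B2m, 0.028 for H2-Aa and 0.12 for Cd74. In all mutant ovaries against wild type it gave −0.032 for Nlrc5. With the title stem term Oas1a gave 0.082 in all mutant ovaries against wild type. Leaving out both libraries apart by gene length also changed signs. In tumour against wild type it gave 0.047 for B2m. In hyperplasia against wild type it gave 0.20 for Bst2, 0.55 for B2m, −0.21 for Ciita, 0.35 for H2-Aa and 0.44 for Cd74. In all mutant ovaries against wild type it gave 0.075 for Irf1, 0.032 for Oas1a, 0.30 for B2m, 0.052 for H2-Aa and 0.19 for Cd74. With 1 library left out, the change in tumour against wild type kept its sign but moved nearer to 0 by more than 1.5 times for Bst2 (0.71, nearest to 0 at 0.16), Ciita (−0.79, nearest to 0 at −0.25), H2-Aa (−0.64, nearest to 0 at −0.064), H2-Ab1 (−0.22, nearest to 0 at −0.12), H2-D1 (0.78, nearest to 0 at 0.31), Irf1 (−0.43, nearest to 0 at −0.24), Nlrc5 (0.24, nearest to 0 at 0.091) and Oas1a (−0.86, nearest to 0 at −0.56). Ranges with 1 library left out that crossed 0 are given by comparison. For tumour against wild type these ranges were −0.76 to 0.55 for B2m, −0.83 to 0.053 for Cd74 and −0.40 to 0.057 for H2-DMb1. For hyperplasia against wild type these ranges were −0.92 to 0.20 for Bst2, −0.57 to 0.56 for B2m, −0.21 to 0.65 for Ciita, −0.48 to 0.35 for H2-Aa, −0.44 to 0.44 for Cd74, −0.25 to 0.011 for Ifit2, −0.11 to 0.15 for Tap2, −0.033 to 0.31 for Irf1 and −0.29 to 0.73 for Oas1a. For tumour against hyperplasia these ranges were −0.48 to 0.19 for B2m, −0.60 to 0.17 for H2-D1 and −0.25 to 0.12 for Tapbp. For all mutant ovaries against wild type these ranges were −0.26 to 0.031 for Irf1, −0.58 to 0.067 for Oas1a, −0.58 to 0.55 for B2m, −0.69 to 0.15 for H2-Aa, −0.64 to 0.25 for Cd74, −0.30 to 0.84 for Bst2 and −0.65 to 0.20 for Ciita. No paired analysis was possible because the replicate numbers are accession order and the labels name no shared animal, litter or day.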

Other observations

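The other cell type lists are given as summed CPM. The 6 endothelial markers summed to 233 to 495 CPM in tumours, 294 to 451 CPM in hyperplasia and 388 to 407 CPM in wild type. In tumours, hyperplasia and wild type the 6 surface epithelial markers came to 1.17 to 1369.8, 199 to 558 and 204 to 230.4 CPM. The 5 fibroblast markers summed to 1401 to 3965 CPM in tumours, 2539 to 5361 CPM in hyperplasia and 1583 to 4946 CPM in wild type. In tumours, hyperplasia and wild type the 10 granulosa cell markers came to 4063 to 4844, 988 to 2999 and 1721 to 3639.7 CPM. The 7 luteal markers summed to 1001 to 1549.7 CPM in tumours, 6343 to 11960.4 CPM in hyperplasia and 7389 to 19319 CPM in wild type. In tumours, hyperplasia and wild type the 7 oocyte markers came to 1.43 to 4.97, 2.97 to 67.6 and 113 to 148 CPM. The 6 adipocyte markers summed to 11.4 to 17.2 CPM in tumours, 13.7 to 32.7 CPM in hyperplasia and 50.1 to 66.4 CPM in wild type. In tumours, hyperplasia and wild type the 8 T and NK cell markers came to 4.97 to 8.32, 16.4 to 28.6 and 8.13 to 13.6 CPM. The low end of the epithelial sum was tumour library 2, where Krt8, Krt18 and Krt19 had 0.0975, 0.780 and 0.0975 CPM, against 157, 227 and 396 CPM in tumour library 1.

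Of the further interferon-induced genes, the ones next to the threshold in tumours against wild type were Oasl1 and Cxcl9. Oasl1, an oligoadenylate synthetase-like protein that restrains Irf7 translation in mice, had 8.01, 103 and 10.2 CPM in the tumours, 4.34, 5.94 and 5.22 CPM in the hyperplastic ovaries and 2.24, 2.30 and 2.36 CPM in the wild-type ovaries. Each tumour lay above each other ovary, and tumour library 2 far above the rest, while the same library held the lowest Oasl2. The change was 4.13 ± 0.94 against wild type (adjusted p = 0.062, edgeR), and 1.98 without tumour library 2. Without wild-type library 1 as well it was 1.94 (adjusted p = 0.0638, edgeR). Cxcl9, a chemokine that interferon gamma induces, had 0.794, 0.293 and 0.420 CPM in the tumours, 3.91, 3.19 and 1.58 CPM in the hyperplastic ovaries and 4.58, 1.77 and 2.87 CPM in the wild-type ovaries and a change of −2.57 ± 0.60 (adjusted p = 0.0667, edgeR). The Cxcl9 change is not given without wild-type library 1, its highest value, and tumour library 2, its lowest.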
